A study of Mus musculus with 16 samples.

Results

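MiR-21 is a microRNA (miRNA), a small RNA that guides the Argonaute proteins to matching sites in messenger RNAs and lowers their output. The values described here are those of its main strand, named mmu-miR-21 on the array (miR-21 below), and of the passenger strand of the same hairpin, named mmu-miR-21* (miR-21*). These 2 names were taken by name out of the 611 mouse miRNAs on the array, with earlier results of these data known. Array names without an arm are older names, and the reference lists both strands under the gene Mir21a as miR-21a-5p and miR-21a-3p.

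MiR-21 is one of the most abundant miRNAs of cultured fibroblasts and is widely known as a miRNA that is raised in tumors and in fibrosis. Its known targets include Pdcd4, which restrains translation and cell growth, Spry1, which restrains ERK signaling, and Smad7, which restrains TGF-β signaling. In activated fibroblasts, TGF-β is known to raise miR-21 in part through Smad proteins that promote the cutting of its primary transcript by Drosha.

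The RNA came from primary mouse embryonic fibroblasts (MEFs), unselected cultures taken from mid-gestation embryos of a mixed C57Bl/6 and FVB/n background. MEFs were wild type (WT) or Ercc1-/-, which lack a subunit of the XPF-ERCC1 endonuclease of nucleotide excision and crosslink repair, and were grown in 3% or 20% O2 to passage 3 (P3) or passage 7 (P7). Total RNA, 120 ng by the labels, was put on 16 one-color miRNA arrays, 2 in each of the 8 groups, and by the study's methods the 2 replicates came from separate lines of MEFs. The first replicate of every group lay on 1 slide and the second replicate of every group on the other, so replicate, slide and scan cannot be told apart, and which arrays of different groups share a cell line is not known. Ercc1 itself is not measured by a miRNA array, so the genotypes could not be checked here.

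The strands that the array names stand for are shown first, with bases 2 to 8, the seed that sets most of the target choice, in capitals. All sequences and positions are from RefSeq, mouse build GRCm38.p6.
miR-21a-5p (miR-21 on the array), chr11:86584120-86584141, minus strand: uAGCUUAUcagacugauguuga
miR-21a-3p (miR-21* on the array), chr11:86584082-86584103, minus strand: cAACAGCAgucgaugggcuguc
miR-21b, chr3:29636768-29636790, plus strand: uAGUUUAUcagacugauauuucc
miR-21c, chr8:128278188-128278208, minus strand: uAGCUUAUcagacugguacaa
The strands of Mir21a have different seeds and differ in base composition, with 8 G or C bases of 22 in miR-21a-5p and 13 of 22 in miR-21a-3p. The 2 paralogs are shown because an array probe may bind close copies. Counted from 1 at the 5′ end of miR-21a-5p, miR-21b differs by C4U in the seed and by G18A, G21U and A22C over the 22 positions compared. MiR-21c has the same seed and differs by A16G, G18A, U19C, U20A and G21A over its 21 positions. Among the 1679 mature mouse names in the reference, miR-21c is the only other one with the seed of miR-21a-5p, and none shares the seed of miR-21a-3p. Neither miR-21b nor miR-21c has a name on the array.

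Both strands are cut from 1 hairpin of 92 bases at chr11:86584067-86584158, minus strand, which the reference places inside the interval of the gene Vmp1, encoding a membrane protein of autophagy. It is printed with the 2 mature strands in capitals, so that their places on either side of the loop can be seen.
Mir21a hairpin: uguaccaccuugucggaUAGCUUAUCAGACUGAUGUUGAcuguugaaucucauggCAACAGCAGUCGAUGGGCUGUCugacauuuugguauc
The miR-21 strand takes bases 18 to 39 of the hairpin and the miR-21* strand bases 56 to 77, with 16 bases between them.

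The arrays differed in overall brightness, and the values of miR-21 have to be read against that. The arrays had from 117 to 257 mouse miRNAs with a signal above background. On slide 1, 7 arrays had 216 to 257 and the Ercc1-/- P7 3% array had 155, whereas slide 2 ran from 117 to 204. Values are given as log2 of the processed signal, either as scanned (unscaled) or after shifting each array so that the 57 miRNAs seen above background throughout had 1 common mean (scaled). The fibroblast origin was checked with markers. All 7 mesenchymal miRNAs were above background on at least 1 array and held 16.4% to 20.6% of the summed mouse miRNA signal at P3 and 0.795% to 20.0% at P7. None of the 6 epithelial, 2 endothelial or 1 liver markers was above background on any array, and 3 of 7 blood, 1 of 4 muscle and 2 of 5 neural markers were on at least 1, with summed shares of at most 0.184%.

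MiR-21 was among the brightest features of every array and lost its lead in most late-passage cultures. At P3 it ranked first on 7 of 8 arrays, and at P7 on 2 of 8, both of them slide 1 arrays of cells in 20% O2. Its averaged difference with passage was -1.06 on the log2 scale after scaling and narrowly missed the threshold, and most of it lay on slide 2. Genotype and oxygen gave no call for miR-21. MiR-21* was dim throughout and moved the other way after scaling.

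At P3 in WT MEFs, scaled log2 miR-21 was 12.44 and 13.14 in 3% O2 and 12.81 and 13.14 in 20% O2, with the slide 1 array first in each pair. In P3 Ercc1-/- MEFs it was 12.57 and 13.07 in 3% O2 and 12.71 and 13.19 in 20% O2. The 8 early-passage arrays thus lay between 12.44 and 13.19, whatever the genotype or oxygen, and slide 2 was the higher one in every group.

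At P7 the scaled values of WT MEFs were 12.25 and 11.37 in 3% O2 and 13.25 and 11.74 in 20% O2. Those of P7 Ercc1-/- MEFs were 11.53 and 11.20 in 3% O2 and 13.05 and 10.19 in 20% O2. Here slide 2 was the lower one in every group. Of the 8 P7 arrays, 6 lay below every P3 array, and the other 2, both slide 1 arrays in 20% O2, lay within or above the P3 range.

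**Figure D1:**
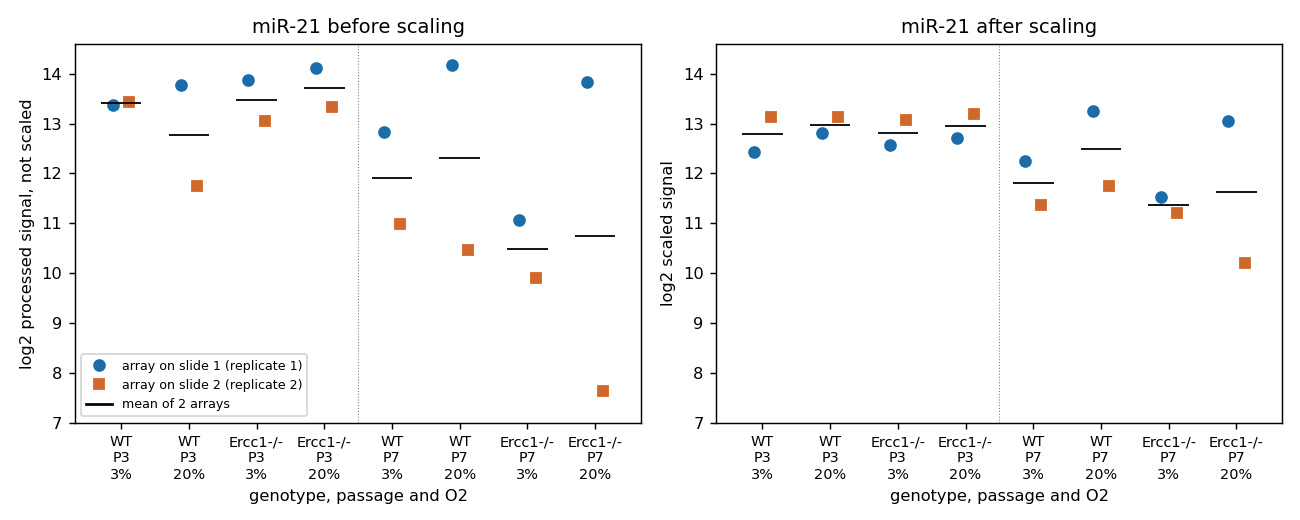
Log2 signal of miR-21 on each of the 16 arrays by genotype, passage and O2, before scaling (left) and after scaling to an equal mean over 57 miRNAs (right); points are arrays, colored by slide, and bars are means of 2 arrays. After scaling the P3 arrays sit between 12.44 and 13.19 and the P7 arrays spread from 10.19 to 13.25.

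Before scaling the spread was much wider. Unscaled log2 miR-21 was 13.38 and 13.43 in WT P3 3%, 13.78 and 11.75 in WT P3 20%, 13.89 and 13.06 in Ercc1-/- P3 3%, and 14.12 and 13.33 in Ercc1-/- P3 20%. At P7 it was 12.83 and 10.99 in WT 3%, 14.18 and 10.46 in WT 20%, 11.07 and 9.89 in Ercc1-/- 3%, and 13.84 and 7.64 in Ercc1-/- 20%. The brightest and dimmest arrays for miR-21 were thus both P7 arrays in 20% O2, one WT on slide 1 and the other Ercc1-/- on slide 2. Scaling narrowed the range from 7.64 to 14.18 down to 10.19 to 13.25, and it lifted the WT P3 20% array of slide 2 from the lowest of the P3 arrays to 13.14.

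Ordered by mean scaled log2 signal, the groups ran from WT P3 20% (12.97 ± 0.23, SD, n = 2), Ercc1-/- P3 20% (12.95 ± 0.34), Ercc1-/- P3 3% (12.82 ± 0.35) and WT P3 3% (12.79 ± 0.50) to WT P7 20% (12.49 ± 1.07), WT P7 3% (11.81 ± 0.62), Ercc1-/- P7 20% (11.62 ± 2.02) and Ercc1-/- P7 3% (11.36 ± 0.23). All 4 P3 groups stood above all 4 P7 groups. The arrays of each group overlapped with those of the next group in all 7 neighboring steps, so no neighbors in this order were separated. In both 3% O2 groups at P7 the 2 arrays lay below every P3 array, and in Ercc1-/- P7 3% they also lay close together. Without scaling the P3 groups again took the first 4 places, led by Ercc1-/- P3 20% at 13.73, and Ercc1-/- P7 3% was again last at 10.48.

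To ask whether miR-21 changed between early and late passage, the P7 and P3 groups were compared with limma over all 235 mouse miRNAs tested. Averaged over genotype and O2, scaled miR-21 differed by -1.06 (SE 0.43, 95% interval -1.99 to -0.13), a 2.09-fold lower signal at P7, with an unadjusted p of 0.029 and an adjusted p of 0.051 by limma with Benjamini-Hochberg adjustment. This comparison called 54.9% of the miRNAs tested, 22.6% as higher and 32.3% as lower. The median change of all 235 was -0.39, and 34.0% of them had a more negative change than miR-21. With the replicate number, which is also the slide, as a block, the adjusted p was 0.037.

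The slides gave different sizes for this change. On slide 1 alone the averaged change was -0.11, and on slide 2 alone it was -2.01. In 3% O2 the P7 array was lower than the P3 array of its slide in every case, by 0.19 and 1.77 in WT MEFs and by 1.04 and 1.87 in Ercc1-/- MEFs. In 20% O2 it was higher on slide 1, by 0.44 in WT and 0.34 in Ercc1-/- MEFs, and lower on slide 2, with changes of -1.40 and -2.99.

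The 4 slide 2 arrays at P7, on which miR-21 was lowest for its oxygen and genotype, had 117 to 178 miRNAs above background, against 132 to 204 on the slide 2 arrays at P3. The array with 117, Ercc1-/- P7 20% on slide 2, had the lowest scaled miR-21 of all, 10.19. The slide 2 arrays of WT 20% had 132 at P3 and 128 at P7, with scaled miR-21 of 13.14 and 11.74. The part of array brightness in the change was not tested. Fewer cells with miR-21 and less miR-21 in each cell cannot be told apart in RNA from whole cultures.

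No passage comparison within 1 genotype and oxygen level passed the test for miR-21. The changes were -0.98 (SE 0.85, adjusted p = 0.657) in WT 3%, -0.48 (adjusted p = 0.725) in WT 20%, -1.46 (adjusted p = 0.230) in Ercc1-/- 3% and -1.33 (adjusted p = 0.241) in Ercc1-/- 20%, all by limma with Benjamini-Hochberg adjustment. These 4 comparisons called between 0% and 1.28% of the 235 miRNAs. The passage change in Ercc1-/- minus that in WT MEFs was -0.66 (95% interval -2.53 to 1.20, limma adjusted p = 0.771), and that in 20% minus that in 3% O2 was 0.32 (95% interval -1.55 to 2.18, limma adjusted p = 0.996). The Ercc1-/- 20% value depended on single arrays. It was -2.75 (limma adjusted p = 0.007) without the slide 1 P7 array and 0.10 (limma adjusted p = 0.990) without the slide 2 P7 array, and in both fits the array left in its group was assumed to vary like the other groups.

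**Figure D2:**
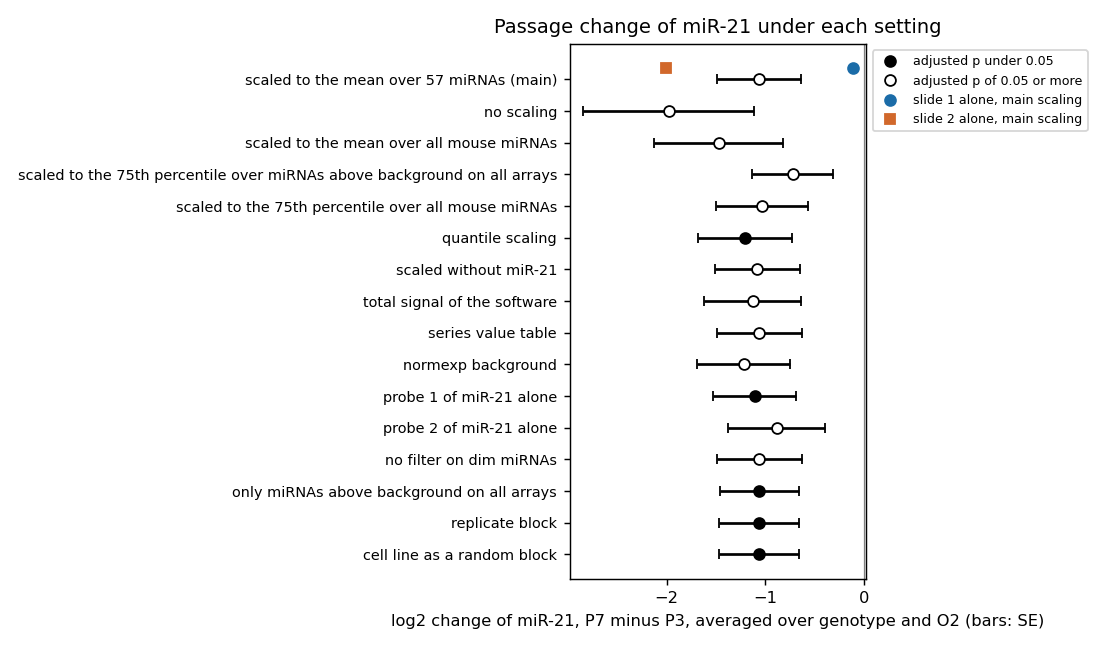
Log2 change of miR-21 from P3 to P7, averaged over genotype and O2, under the main scaling and 15 other settings; points are estimates from limma, bars are SE, and filled points passed an adjusted p of 0.05. Every setting gave a lower value at P7, from -1.98 without scaling to -0.72, while slide 1 alone gave -0.11 and slide 2 alone -2.01.

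The size of the averaged passage change of miR-21 depended on the scaling, and its sign was the same under each of them. The averaged change was -1.98 (limma adjusted p = 0.097) with no scaling, -1.47 (adjusted p = 0.083) scaled to the mean of all mouse miRNAs, -1.03 (adjusted p = 0.079) to their 75th percentile and -0.72 (adjusted p = 0.150) to the 75th percentile of the 57. Quantile scaling gave -1.20 and passed, with an adjusted p of 0.047. These settings also moved the median change of all 235 miRNAs, from -1.18 with no scaling to -0.10 with the 75th percentile of the 57. Relative to that median, miR-21 changed by -0.67 under the main scaling, and by -0.63 to -0.96 under these 5 others. Normexp background correction gave -1.22 (adjusted p = 0.105) beside a median of 0.40, and there 5.11% of the tested miRNAs had a lower change than miR-21. Leaving miR-21 itself out of the 57 changed the value only to -1.08, with an adjusted p of 0.051.

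MiR-21 was read by 2 probes with 10 spots each, and all 320 of its spots on the 16 arrays were well above background, with none saturated. The brighter probe gave 294 to 25834 units and the other 104 to 11215. The first was 2.10 to 2.49 times as bright as the second on slide 1 and 2.84 to 5.2 times on slide 2, so the slides differed for probes of 1 and the same miRNA. The averaged passage change was -1.11 (limma adjusted p = 0.042) from the brighter probe alone and -0.88 (limma adjusted p = 0.139) from the other.

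Rank and share need no scaling between arrays, though they set the signals of different probes side by side and so order brightness, not amounts of RNA. At P3 miR-21 ranked first of the 611 mouse miRNAs on all arrays but the WT 20% array of slide 2, where miR-720 was brighter. At P7 its ranks were 2 and 5 in WT 3%, 1 and 5 in WT 20%, 3 and 5 in Ercc1-/- 3%, and 1 and 13 in Ercc1-/- 20%, slide 1 first. The mean rank was 1.12 ± 0.35 at P3 and 4.38 ± 3.89 at P7 (SD, n = 8 each), and the difference had an exact permutation p of 0.013, or 0.076 after adjustment over the 6 tests of rank and share. Under 5 other settings the exact permutation adjusted p ran from 0.042 to 0.1875. Permuting only between arrays of the same slide, genotype and O2 was among these settings. The mean rank at P7 was 0.75 places further down on slide 1 alone (exact permutation p = 0.429) and 5.75 places on slide 2 alone (exact permutation p = 0.029).

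The miRNAs that passed miR-21 at P7 were few and recurred. On all 4 slide 2 arrays at P7 miR-22, miR-494, miR-1224 and miR-720 were brighter than miR-21. MiR-720, a name since traced to a piece of a transfer RNA, was brighter than miR-21 on 7 of the 16 arrays, and miR-22, a miRNA linked to fibroblast senescence, on 5. On the Ercc1-/- P7 20% array of slide 2 a further 8 names stood above miR-21, among them miR-709, miR-188-5p and miR-127.

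**Figure D3:**
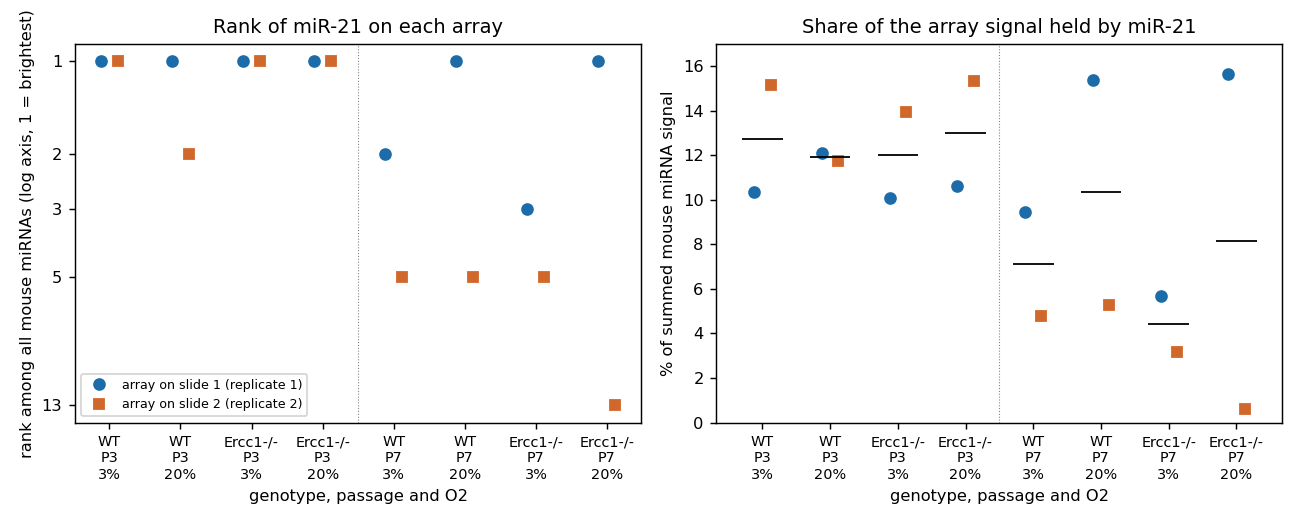
Rank of miR-21 among 611 mouse miRNAs (left, log axis with 1 at the top) and its share of the summed mouse miRNA signal (right, in percent) on each array by genotype, passage and O2; points are arrays colored by slide, and bars on the right are means of 2 arrays. At P3 the rank is 1 or 2 and the share 10.1% to 15.3%, and at P7 the rank runs from 1 to 13 and the share from 0.610% to 15.7%.

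MiR-21 alone held a large part of the signal. Its share of the summed signal of all 611 mouse miRNAs was 10.3% and 15.1% in WT P3 3%, 12.1% and 11.8% in WT P3 20%, 10.1% and 14% in Ercc1-/- P3 3%, and 10.6% and 15.3% in Ercc1-/- P3 20%. At P7 it was 9.46% and 4.78% in WT 3%, 15.4% and 5.30% in WT 20%, 5.69% and 3.15% in Ercc1-/- 3%, and 15.7% and 0.610% in Ercc1-/- 20%. The highest and the lowest share of all 16 arrays were thus the 2 replicates of 1 group, Ercc1-/- P7 20%. The mean share was 12.4% ± 2.13 at P3 and 7.5% ± 5.54 at P7 (SD, n = 8 each), with an exact permutation p of 0.034 and an adjusted p of 0.103. Under the same 5 other settings as for rank, the exact permutation adjusted p ran from 0.080 to 0.281. On slide 1 alone the mean share was 0.754 percentage points higher at P7, and on slide 2 alone 10.6 points lower.

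The place of miR-21 among the 56 other miRNAs above background on all arrays is also free of scaling. Comparing the P7 with the P3 array of the same slide, genotype and O2, 20, 7, 10 and 12 of the 56 had a lower change than miR-21 in 3% O2, in the order WT slide 1, WT slide 2, Ercc1-/- slide 1 and Ercc1-/- slide 2. In 20% O2 the same counts were 52, 13, 33 and 9. MiR-21 thus stood in the lower part of the changes in all 3% pairs and in both slide 2 pairs in 20% O2, and in the upper part in both slide 1 pairs in 20% O2.

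The comparison of Ercc1-/- with WT MEFs addressed whether the repair defect by itself went with another level of miR-21. Averaged over passage and O2 the difference was -0.33 (SE 0.43, 95% interval -1.26 to 0.60, limma adjusted p = 0.933), in a comparison that called 1.7% of the miRNAs tested. At P3 the differences were 0.03 in 3% and -0.02 in 20% O2, each with a 95% interval that reached beyond 1.8 in both directions. At P7 they were -0.44 in 3% and -0.87 in 20% O2, and the latter was -2.30 (limma adjusted p = 0.032) without the slide 1 Ercc1-/- array and 0.56 without the slide 2 Ercc1-/- array, where again the spread of the single array left was taken from the other groups. For rank and share no difference by genotype passed the exact permutation test (adjusted p = 0.838 for each).

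For oxygen, 20% minus 3% averaged 0.31 (SE 0.43, 95% interval -0.62 to 1.24, limma adjusted p = 1.000), in a comparison that called 0.851% of the miRNAs tested. The difference was 0.18 and 0.13 at P3 and 0.69 and 0.26 at P7, in WT and Ercc1-/- MEFs in that order. On slide 1 it was higher in 20% O2 in all 4 comparisons, by 0.14 to 1.52, and on slide 2 the 4 values ran from -1.01 to 0.37.

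MiR-21* was measured near the background. It was above background on 14 of 16 arrays, on 6 of 8 at P3 and on 8 of 8 at P7, the exceptions being the slide 2 arrays of WT P3 20% and Ercc1-/- P3 3%. Of its 4 probes, only 2 had spots well above background. Its mean signal was between 4.09 and 23.7 units, while that of miR-21 was between 199 and 18525.

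In unscaled log2 units miR-21* was 3.25 and 2.60 in WT P3 3%, 4.15 and 2.17 in WT P3 20%, 3.21 and 2.03 in Ercc1-/- P3 3%, and 4.13 and 2.92 in Ercc1-/- P3 20%. At P7 it was 3.93 and 3.36 in WT 3%, 4.11 and 3.78 in WT 20%, 3.32 and 3.90 in Ercc1-/- 3%, and 4.56 and 4.28 in Ercc1-/- 20%. The P7 values lay mostly at the upper end of the P3 range and overlapped with it. After scaling, the P3 arrays ran from 1.89 to 3.56 and the P7 arrays from 3.19 to 6.83, and 6 of 8 P7 arrays were above every P3 array.

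The averaged passage change of scaled miR-21* was 1.77 (SE 0.46, 95% interval 0.76 to 2.77, limma adjusted p = 0.011), with 0.99 on slide 1 and 2.54 on slide 2. No exact fold can be read from it, since 2 of the 8 P3 arrays had no miR-21* signal above background. All 8 within-slide pairs of P7 and P3 arrays had the higher scaled value at P7. With no scaling the change was 0.85 and was not called (limma adjusted p = 0.202), and with normexp background correction it was 0.80 (limma adjusted p = 0.168). A dim signal that hardly varies rises when a dim array is scaled up, and the part of this in the change was not tested.

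The ratio of the strands on 1 array does not depend on scaling between arrays, and it was examined after the values were seen. Log2 of miR-21* over miR-21 was -10.13 and -10.83 in WT P3 3%, -9.63 and -9.58 in WT P3 20%, -10.68 and -11.03 in Ercc1-/- P3 3%, and -9.99 and -10.41 in Ercc1-/- P3 20%. At P7 it was -8.90 and -7.63 in WT 3%, -10.06 and -6.68 in WT 20%, -7.76 and -5.99 in Ercc1-/- 3%, and -9.28 and -3.36 in Ercc1-/- 20%. The ratio was higher than on every P3 array on 7 of 8 P7 arrays, the exception being WT P7 20% on slide 1. The highest and the lowest P3 ratio, -9.58 and -11.03, came from the arrays on which miR-21* was not above background. Those arrays are included in the tests that follow.

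The mean log2 ratio was -10.28 ± 0.54 at P3 and -7.46 ± 2.13 at P7 (SD, n = 8 each), a difference of 2.83 with an exact two-sided permutation p of 0.00078. Permuted only between arrays of the same slide, genotype and O2, the exact p was 0.016, where 0.0078 is the smallest possible. The difference was 1.11 on slide 1 alone (exact permutation p = 0.086) and 4.55 on slide 2 alone (exact permutation p = 0.029), and 2.24 without the dimmest array, Ercc1-/- P7 20% on slide 2. Genotype and oxygen moved the ratio by 0.62 and 0.49 (exact permutation p = 0.593 and 0.670). The 4 slide 2 arrays at P7, with the highest ratios, were each dimmer than the slide 1 array of their group. On the slide 2 array of WT P3 20%, which was also dim, miR-21* was not above background, so its ratio cannot be set against these. The part of array brightness in the difference was not tested. Among the other pairs of a star name and its partner on the array, miR-140* with miR-140 was the only one with both strands above background on at least 14 arrays, and its log2 ratio was 2.16 higher at P7, with 0.91 on slide 1 and 3.40 on slide 2.

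**Figure D4:**
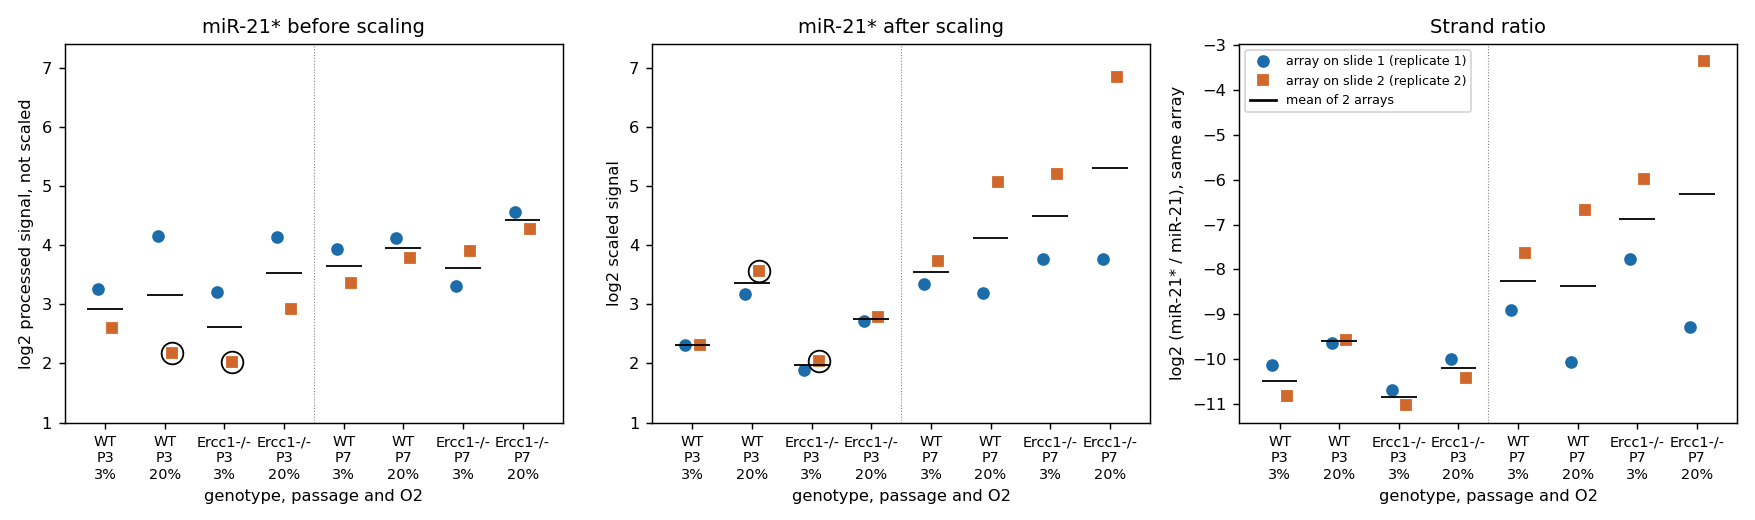
Log2 signal of miR-21* before (left) and after scaling (middle), and log2 ratio of miR-21* to miR-21 (right), on each array by genotype, passage and O2; points are arrays colored by slide, bars are means of 2 arrays, and circled points were not above background. The ratio lies between -11.03 and -9.58 at P3 and between -10.06 and -3.36 at P7.

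The miRNAs that followed miR-21 most closely over the 16 arrays were named by 2 measures, the Pearson correlation of scaled log2 values and the SD of the log2 ratio on an array, both among the 56 others above background on all arrays. By correlation they were miR-214 (r = 0.91), miR-199a-3p (0.91), let-7d (0.89), miR-23a (0.88) and let-7g (0.88), where the median of the 56 was 0.10. That median lies between 2 sides, since 22 of the 56 had an r over 0.5 and 24 an r under -0.5. By the ratio they were miR-214 (SD 0.40), miR-23a (0.45), miR-125b-5p (0.46), miR-199b* (0.52) and miR-125a-5p (0.54), where the median was 1.04. MiR-214 was first on both and miR-23a among the first 5 on both, miR-214 being made with miR-199a from a transcript of mesenchymal cells and miR-23a from a cluster with miR-24 and miR-27a. The arrays share their scaling, slide and depth of signal, so these are descriptions of 16 arrays. Within the 8 P3 arrays the correlations were 0.66 for miR-214, 0.11 for miR-23a and -0.57 for miR-125b-5p, and within the 8 P7 arrays 0.88, 0.84 and 0.84. For the others named, the P3 values were 0.50 for miR-199a-3p, 0.53 for let-7d, 0.13 for let-7g, -0.56 for miR-199b* and 0.58 for miR-125a-5p. Their P7 values ran from 0.82 to 0.92. The likeness was thus closer within P7 for each of them, and within P3 it differed between miRNAs.

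Their mature sequences are shown with the seed in capitals because none shares the seed of miR-21.
miR-214-3p (miR-214 on the array): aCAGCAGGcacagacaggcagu
miR-23a-3p (miR-23a on the array): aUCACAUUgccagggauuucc
miR-125b-5p: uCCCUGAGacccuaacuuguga
miR-199a-3p: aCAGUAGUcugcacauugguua
The averaged passage change was -1.15 (SE 0.43, limma adjusted p = 0.037) for miR-214 and -1.16 (limma adjusted p = 0.051) for miR-23a, sizes close to that of miR-21. For miR-125b-5p, a relative of the worm lin-4 miRNA, it was -1.22 (limma adjusted p = 0.017), and for miR-199a-3p -2.78 (limma adjusted p = 0.007).

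**Figure D5:**
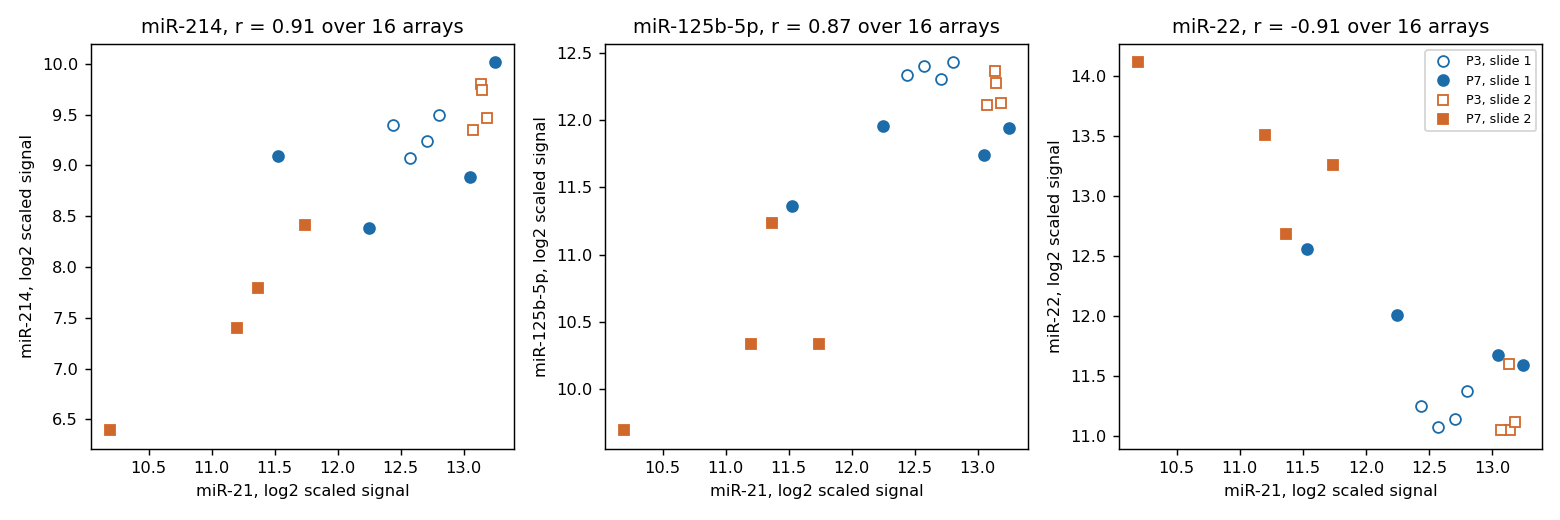
Scaled log2 signal of miR-214, miR-125b-5p and miR-22 against that of miR-21 on the 16 arrays, with open points for P3 and filled points for P7 and colors for the slide. The P3 arrays form 1 cluster and the P7 arrays spread away from it, downward with miR-21 for miR-214 (r = 0.91) and miR-125b-5p (r = 0.87) and upward for miR-22 (r = -0.91).

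By mean scaled log2 signal miR-21 was the brightest mouse miRNA (12.35), followed by miR-720 (12.23), miR-22 (11.94), miR-125b-5p (11.69) and miR-199a-3p (10.40). Of these 5, miR-22 rose with passage by 1.47 (SE 0.40, limma adjusted p = 0.012) and miR-720 had a change of 0.13 (limma adjusted p = 0.674). MiR-22 ran from 11.04 to 11.59 at P3 and from 11.59 to 14.12 at P7, and miR-21 from 12.44 to 13.19 and from 10.19 to 13.25. Without scaling the averaged change was 0.55 for miR-22 and -1.98 for miR-21.

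The miRNAs of a list for fibroblast activation and fibrosis, which act in different directions, did not move as a block. Of 17 on the list 15 were tested, and in the averaged passage comparison 1 rose and 5 fell, with a median change of -0.30 against -0.39 for all 235 and calls for 54.9% of those. Those that fell were miR-199a-3p, miR-214, miR-34a (-1.60), let-7d (-2.39) and miR-30c (-2.43), and miR-145, a miRNA of contractile cells, rose by 1.20 (limma adjusted p = 0.016), or by 0.28 with no scaling. The brightest others were not called. Changes were 0.31 for miR-29a, which restrains collagen genes, -0.34 for miR-199a-5p, 0.19 for miR-24 and -0.30 for miR-26a.

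Among miRNAs induced by inflammatory or growth factor signals, 7 of 8 were tested, 1 rose and 1 fell, with a median change of 0.34, where 22.6% of all 235 were called higher and 32.3% lower. MiR-222 rose by 1.82 (limma adjusted p = 0.004), while its cluster partner miR-221 had a change of -0.86 (limma adjusted p = 0.123). MiR-146b, a brake on NF-κB signaling, fell by 1.77 (limma adjusted p = 0.034), and for miR-212 and miR-181b the changes were 0.42 and 0.34. Of the strands of miR-199a, whose processing is known to be aided by Smad proteins as that of miR-21 is, 1 of 2 fell, against the same 32.3%. Both miRNAs of a short list for immortalization of MEFs fell, miR-34a, a p53 target, and miR-28, by 1.66 (limma adjusted p = 0.018), where 32.3% of all 235 were called lower. With no scaling the medians were -1.22 for the fibrosis list, -0.58 for the induced list and -2.42 for the immortalization list, against -1.18 for all 235.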

How the data were processed

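MiRNAs were measured in 16 MEF RNA samples on Agilent mouse miRNA arrays (V2). The deposited intensity values were made by the authors with Agilent Feature Extraction, which subtracts background and gives a processed signal per spot, not scaled between arrays. The authors' series table, also intensity and on the linear scale, and the deposited total signal per miRNA served as alternatives. Feature Extraction 10.7.1.1 is the version in the file headers.

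Control and outlier spots were left out, and spots were averaged per probe and probes per miRNA. A miRNA was above background where any probe had a share of at least 0.5 of its spots marked well above background. Each array was shifted on the log2 scale so that 57 miRNAs had 1 common mean, with a floor of 2.82 scaled units. A miRNA was tested where a group had it above background on 2 of 2 arrays, which left 235. Testing used limma 3.58.1 (R 4.3.3) on 8 group means. There were 8 residual degrees of freedom and a prior of 3.58. P-values of each of the 17 comparisons were adjusted by Benjamini-Hochberg, with a threshold of 0.05. Ranks, shares and strand ratios were compared by two-sided exact permutation tests of 8 against 8 arrays in Python 3.11.15. Replicates are independent experiments by the labels, and p-values measure the spread between these arrays, whose number limits the precision. The scripts were tested on simulated data.

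The members, gene lists and tests were chosen with earlier results of these data known. Named were miR-21 and miR-21*, the 5 brightest miRNAs, the 5 most like miR-21 by each measure, miRNAs sharing a seed and the brightest list members. MiRNAs that outranked miR-21 were named after their values were seen. The normexp alternative used the median spot signal, the raw spot column in the files. The methods' t-test was run as an alternative.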

Additional observations from a re-analysis of the deposited data

How the results depend on the processing

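Across 540 recomputed values of 30 results, 482 kept their direction and side of the threshold, 44 turned direction, 10 became called and 4 lost their call. The averaged passage change of miR-21 was negative under all settings. It became called with quantile scaling (-1.20), from the brighter probe alone (-1.11), and at an unmoved -1.06 with only the 57 miRNAs above background on all arrays, with the replicate block (adjusted p = 0.037) and with genotype and replicate number, taken as a cell line, as a random block (adjusted p = 0.037). The rank of miR-21 at P7 against P3 was called with the total signal of the software (a mean rank 4 places further down, exact permutation adjusted p = 0.042). In those totals miR-21* and some other star names also carry the signal of their other strand, as described below. That ranking thus puts miR-21* ahead of miR-21 on 15 of 16 arrays, so the call is not one on the rank of miR-21 by its own signal. The averaged change of miR-21* lost its call with no scaling (0.85), with normexp (0.80) and, at 1.77, with no filter on dim miRNAs (adjusted p = 0.052).

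The miRNAs called higher and lower in that comparison were 53 and 76, against 6 and 40 with no scaling, 34 and 59 with the mean of all miRNAs, 64 and 60 with the 75th percentile of the 57, 32 and 40 with the software total and 13 and 21 with normexp.

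None of the values that turned direction was called on either side. WT passage change in 20% O2 was 0.091 with the 75th percentile of all miRNAs. Ercc1-/- minus WT at P3 in 3% O2 was -0.10 with the 75th percentile of the 57 and -0.073 from the dimmer probe. At P3 in 20% O2 it was 0.96 with no scaling, 0.61 with the mean and 0.42 with the 75th percentile of all miRNAs, 0.26 with quantile scaling, 0.058 with the software total, 0.23 with normexp and 0.015 from the brighter probe. For 20% minus 3% O2, WT at P3 was -0.64 with no scaling, -0.49 with the mean and -0.19 with the 75th percentile of all miRNAs, -0.26 with quantile scaling and -0.068 with normexp, Ercc1-/- at P7 was -0.16 with quantile scaling, and the average was -0.040 with quantile scaling.

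Leaving out 1 array at a time, with the lone array of its group assumed to vary like the other groups, gave these ranges for miR-21. Passage changes ran from -1.42 to -0.70 averaged, -1.42 to -0.54 in WT 3%, -1.23 to 0.28 in WT 20%, -1.71 to -1.21 in Ercc1-/- 3% and -2.75 to 0.10 in Ercc1-/- 20%. The average was called without the slide 1 array of WT P7 20% or of Ercc1-/- P7 20%, with the lowest adjusted p of 0.002, and was -0.70 without the slide 2 array of Ercc1-/- P7 20%. Genotype differences ran from -0.32 to 0.38 at P3 3%, -0.26 to 0.22 at P3 20%, -0.88 to -0.0029 at P7 3%, -2.30 to 0.56 at P7 20% and -0.68 to 0.030 averaged (miR-21* -0.092 to 0.67). Oxygen differences ran from -0.17 to 0.53 in WT P3, -0.069 to 1.44 in WT P7, -0.12 to 0.38 in Ercc1-/- P3, -1.17 to 1.69 in Ercc1-/- P7 and -0.045 to 0.67 averaged. Differences between passage changes ran from -1.38 to 0.05 by genotype and -0.40 to 1.03 by oxygen. Without 1 slide, or without the dimmest array (the latter, like all strand ratios, chosen after seeing the data), the rank differed by 0.75 (exact permutation p = 0.429, without slide 2) to 5.75 (without slide 1) for passage, with 2.02 without the dimmest array, by -0.39 to 1.75 for genotype and -0.75 to 2.25 for oxygen, the share by -10.6 to 0.754 points for passage, -1.30 to 0.110 for genotype and -1.01 to 4.56 for oxygen, and the strand ratio by 1.11 to 4.55 for passage, -0.13 to 0.98 for genotype and -0.37 to 1.36 for oxygen.

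Same-numbered arrays did not deviate together throughout. The difference between replicates correlated with a median of 0.607 among P3 groups and 0.811 among P7 groups but 0.034 between P3 and P7 groups. The numbers were therefore not taken to pair the samples in the main fit. Within a passage, where genotypes and oxygen levels are compared, the shared deviation thus stayed in the spread of that fit. Beside the averaged passage change of miR-21, the replicate block changed 1 call. It was that of miR-21* between P7 and P3 in Ercc1-/- MEFs in 3% O2 (2.52, limma adjusted p = 0.1002 without and 0.042 with the block). By the methods' t-test (p under 0.05 and 2-fold) miR-21 passed in none of the 12 comparisons of single groups, where 0 to 21 miRNAs passed, and 0 after Benjamini-Hochberg adjustment. Signals of miR-21* close to background limit what its values can show.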

Other observations

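The total signal per miRNA that the array software writes for miR-21* is not its own. On 15 of 16 arrays it was within 1% of the total of miR-21 plus that of the probes of miR-21*, for example 18461 units for miR-21* on the slide 1 array of WT P3 20%, where the total of miR-21 was 18440 and the probes of miR-21* summed to 23.2. The deposited series table lists 23.7 for miR-21* on that array. Taken at face value, the software's totals would place miR-21* ahead of miR-21 on these 15 arrays. Other star names shared this in part. Of 41 star names, miR-21* included, detected together with their other strand by the software on at least 1 array, 18 had on every such array a total within 5% of the sum of both strands, and 3 had a total within 5% of that of their own probes.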
